A study of Zea mays with 33 samples.

Results

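The comparison set the green leaf blade of adult maize plants against that of seedlings, in 6 of the 33 RNA-seq libraries of the series, chosen by their tissue labels. All were from the wild-type inbred line B73. The protocol for them lists no treatment, and all titles carry the condition code WW, which the labels do not explain. Both blades were grown in the greenhouse from the same planting date. PS_LF (3 libraries) was the blade of the last ligulated leaf at pollen shed, taken without its midrib from 1 plant per library. PS_LF replicate 1 was harvested 66 days after planting, and replicates 2 and 3 were harvested 69 days after planting. V2_LF (3 libraries) held the green expanded portions of the blades of the first leaves of a seedling, pooled within 1 plant per library, 10 days after planting. Poly(A) RNA was sequenced, and the libraries held 19.9 to 34.9 M reads on genes, the deepest being PS_LF replicate 1 and the shallowest V2_LF replicate 3. Plant age, leaf position, calendar date and removal of the midrib differ together between the 2 groups and cannot be told apart, and the hour of harvest was not in the labels.

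A maize blade fixes carbon by the C4 pathway, which is divided between 2 cell types: mesophyll cells first capture carbon dioxide in a 4-carbon acid, and the bundle sheath cells around the veins release it to Rubisco. The first leaves of a maize plant are juvenile in surface wax, hairs and cell wall chemistry, and later leaves are adult. At pollen shed the upper leaves are sources that export sugar to the ear, whereas the seedling blade feeds a shoot that is still making leaves. Rubisco itself is built from a large subunit encoded in the plastid and a small subunit encoded in the nucleus.

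The 6 blade libraries resembled each other more than they resembled any other tissue. Across genes, and as a description only, the correlation of log2 CPM (the reads of a gene scaled to the size of its library, after normalization) was 0.911 to 0.919 between PS_LF and V2_LF libraries and at most 0.842 between a blade library and one of the other 9 tissues. Within blades it was 0.980 to 0.984 for the V2_LF pairs and 0.990 for PS_LF replicates 2 and 3, but 0.970 and 0.967 for PS_LF replicate 1 with these 2. Stray RNA from other organs was looked for with genes found at 100 CPM or more in tassels or in the later seed stage (DAP35_S). These genes had to be under 1 CPM elsewhere. The blades were not used in that choice, nor was the earlier seed stage (DAP12_S) for the seed genes. The 62 seed genes summed to 0.366 to 1.15 CPM per blade library, against at least 307561 CPM in the seeds, and 47 of them had no read in any blade. The 283 tassel genes summed to 165, 137 and 149 CPM in the 3 PS_LF libraries and to 106, 110 and 119 CPM in the 3 V2_LF libraries, against at least 231256 CPM in the tassel. Of these, 30 had no read in any blade, 257 were under 1 CPM in every blade library, and 1 gene gave 50.3% of the blade sum. The level was thus higher in PS_LF than in V2_LF for this list, and its part in the results was not tested. The markers planned for mesophyll, bundle sheath and vein cells could not be tied to gene IDs, so the cell types of the blades were not checked.

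The seedling blade concentrated its reads in far fewer genes than the adult blade. In V2_LF the most abundant genes that together held 50% of the reads numbered 171, 192 and 204 in replicates 1, 2 and 3. In PS_LF the same share was spread over 864, 595 and 587 genes. The groups did not overlap, and PS_LF replicate 1 had the most even library of the 6. The 100 most abundant genes took 43.8, 42.3 and 41.3% of the reads of the V2_LF libraries and 25.3, 30.0 and 30.1% of those of the PS_LF libraries. At the depth of the shallowest library, the number of features expected to have a read was computed from the counts. It was 26811, 26020 and 26248 in PS_LF and 25744, 25846 and 25617 in V2_LF. Equal depth still leaves fewer reads for the weaker genes of V2_LF, since its leading genes took more of them. The part this plays in the numbers of genes detected was not tested.

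**Figure D1:**
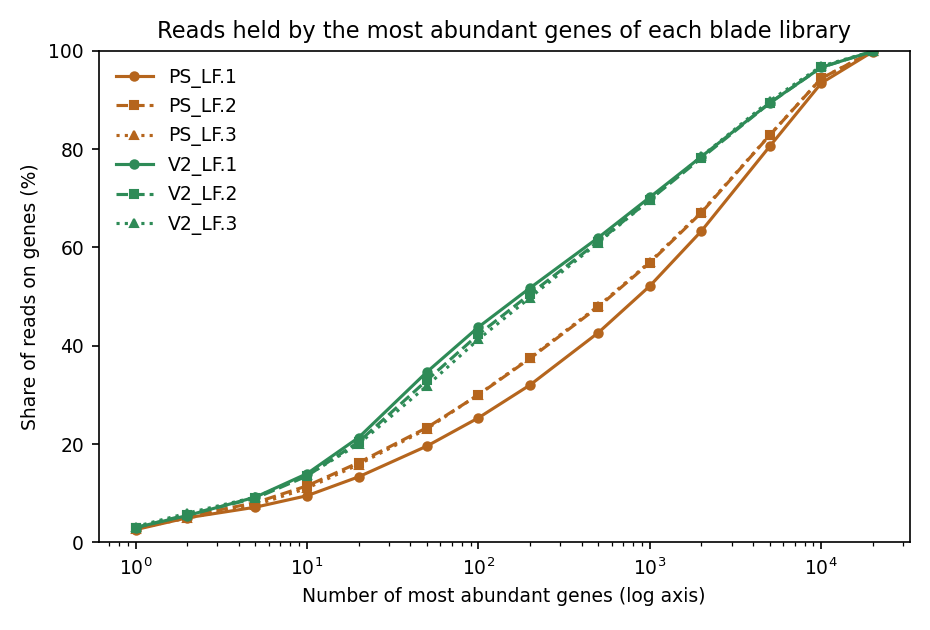
Share of the reads on genes (y axis, %) held by the most abundant genes of each library (x axis, number of genes, log axis), with 1 line per blade library, brown for PS_LF and green for V2_LF. From 50 to 5000 genes all 3 V2_LF lines lie above the PS_LF lines, and PS_LF replicate 1 lies lowest. At 100 genes the lines stand at 41.3 to 43.8% and 25.3 to 30.1%.

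The normalization sets how a fold change must be read. The TMM factors (edgeR's correction of library size) were 0.479 to 0.481 for V2_LF, against 0.793 to 0.856 for PS_LF. The same share of the reads thus makes a higher CPM in V2_LF than in PS_LF. How far the concentration of reads set these factors was not tested. Without these factors, with library size alone, the median gene moved by 0.76 log2 in favour of PS_LF, and that split is given beside the main one where a direction depends on it.

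With TMM factors, nearly as many genes were called higher as lower in the adult blade. This balance depends on the normalization, since the factors set the level from which a rise or a fall is counted. Of 28997 genes tested with edgeR's quasi-likelihood test at a Benjamini-Hochberg adjusted p under 0.05, 6772 were higher in PS_LF (23.4%) and 6683 were lower (23.0%), 46.4% in all. By over 1 log2, 3699 were higher (12.8%) and 4335 lower (14.9%). With library size alone the test called 14169 higher and 2973 lower, so higher genes went from 50.3 to 82.7% of the calls, and 353 genes were called in the opposite direction. DESeq2 called 5976 higher and 7847 lower (43.2% higher), with the median gene 0.10 log2 lower than in edgeR. Leaving out PS_LF replicate 1 gave 6094 higher and 6750 lower, and 5693 of the 6772 and 5965 of the 6683 genes were still called in the same direction. In whole blades, fewer cells of a type and less RNA per cell cannot be told apart.

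Genes with the highest mean CPM over the 6 blade libraries were mostly lower in the adult blade. Among the 182 genes with a mean of 1000 CPM or more over the 6 libraries, 143 (78.6%) were lower in PS_LF and 5 were higher, with a median log2 fold change of -1.37. The same class with library size alone held 93 lower and 19 higher genes, with a median of -0.61, and without PS_LF replicate 1 it held 129 lower and 6 higher. Between 100 and 1000 CPM, 1152 of 2131 genes (54.1%) were lower and 284 (13.3%) higher. This second class changed sides with library size alone, where 457 were lower and 814 higher. In the class from 1 to 10 CPM the balance was the other way, with 2420 of 7264 genes (33.3%) higher and 1619 (22.3%) lower. CPM is not corrected for gene length, so these classes order genes by their reads. The classes were set on the TMM-scaled values that were tested, also where library size alone was used. A gene can thus enter through 1 blade, as Zm00001d023516 did, with a mean of 6727 CPM in V2_LF and 1.13 CPM in PS_LF. How far this leans the classes was not tested.

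**Figure D2:**
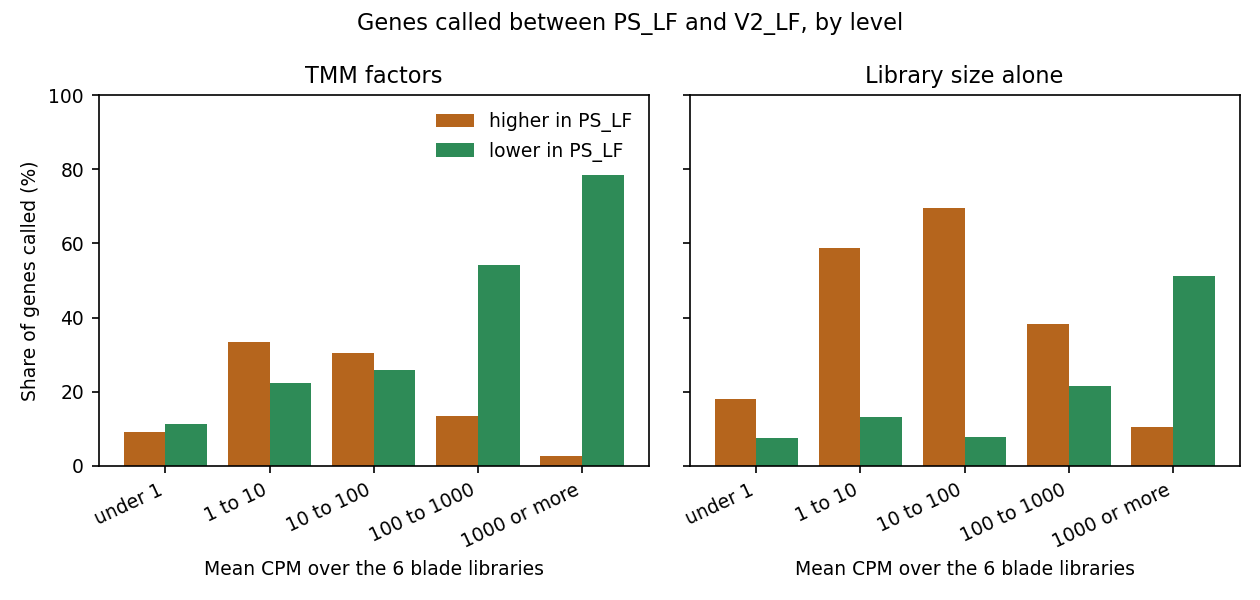
Share of genes called higher (brown) or lower (green) in PS_LF (y axis, %) in 5 classes of mean CPM over the 6 blade libraries (x axis), with TMM factors on the left and with library size alone on the right. Lower genes prevail among genes of 1000 CPM or more in both panels (143 and 93 of 182), whereas the class of 100 to 1000 CPM changes sides. The classes use TMM-scaled CPM in both panels.

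The same was seen from either blade's own leading genes. Of the 100 most abundant genes of V2_LF, 90 were lower in PS_LF and 0 were higher (median -1.74), with 68 lower under library size alone and 82 without PS_LF replicate 1. That list was picked for high values in V2_LF, which leans it to this side. The 100 most abundant genes of PS_LF lean the other way, yet 66 of them were lower in PS_LF and 7 higher (median -1.17). Under library size alone 43 of these were lower and 19 higher, with a median of -0.40. The lists had 71 genes in common.

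Plastid messengers carry no stable poly(A) tail, and the poly(A) libraries held few reads of them. Of 157 plastid features in the files, 36 had a read in a blade and 9 had enough to be tested, and they took 202, 427 and 388 reads in the PS_LF libraries and 451, 520 and 443 in the V2_LF libraries. The values below therefore describe the plastid RNA that a poly(A) library captured, not plastid RNA levels. Of the 9 tested, 5 were lower in PS_LF and 0 higher, against 23.0 and 23.4% of all genes. Of these 5, rbcL, matK and trnK were called under each of the 15 alternatives run. The remaining ones, atpF and ndhA, were each called under 5 of them.

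The gene rbcL (ZemaCp032) encodes the large subunit of Rubisco, the enzyme that fixes carbon dioxide. It had 0, 14 and 9 reads in PS_LF replicates 1, 2 and 3 and 69, 41 and 44 reads in the V2_LF replicates. Its level was 0.386 ± 0.343 CPM (SD, n = 3) in PS_LF and 5.10 ± 1.67 CPM (SD, n = 3) in V2_LF, and every V2_LF library stood above every PS_LF library. The log2 fold change was -3.79 ± 0.74 (SE), with an edgeR adjusted p of 0.000361, and -3.12 without PS_LF replicate 1. The count of 0 in PS_LF replicate 1 allows a level of up to 0.100 CPM, and this library was lower than its 2 partners (edgeR adjusted p = 0.0117, with the spread of a single library taken from the other groups of the fit). In the other 9 tissues rbcL reached at most 0.516 CPM, so the seedling blade was the tissue with the highest level.

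A copy of rbcL in the mitochondrial genome, rbcL-ct (ZeamMp134), was lower in PS_LF, as the only gene of the 24 tested mitochondrial ones, and 0 were higher, against 23.0 and 23.4% of all genes tested. It had 22, 9 and 11 reads in PS_LF and 144, 154 and 111 in V2_LF, with no overlap. The log2 fold change was -4.48 ± 0.58 (SE; edgeR adjusted p = 1.58e-06). The copies are near-identical in sequence. The authors counted only reads mapped unambiguously to a gene, so reads that fit both copies equally well are missing from both counts. Which copy the counted reads came from was not tested and is uncertain. Outside the blades rbcL-ct reached at most 1.15 CPM.

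The gene matK (ZemaCp003) encodes the plastid's intron maturase and lies within the intron of trnK (ZemaCt121), a lysine transfer RNA gene. It had 58, 61 and 71 reads in PS_LF and 143, 164 and 159 in V2_LF. These were 2.92 ± 1.01 and 15.3 ± 1.13 CPM (SD, n = 3 each), a log2 fold change of -2.40 ± 0.52 (SE; edgeR adjusted p = 0.000395). The transfer RNA gene had 13, 15 and 19 reads in PS_LF and 43, 51 and 29 in V2_LF, with a log2 fold change of -2.48 ± 0.53 (SE; edgeR adjusted p = 0.000418). Both were lower in each adult library than in each seedling library, and since the genes overlap their reads are not independent. In the immature seedling leaf V2_LF-I matK had a mean of 13.3 CPM, close to that in V2_LF, where rbcL had 0.365 CPM, close to that in PS_LF, and matK reached 18.0 CPM in 1 tassel library.

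For subunits of the photosynthetic membrane complexes the calls were marginal or missing. For atpF, a subunit of the plastid ATP synthase, the reads were 13, 29 and 26 in PS_LF and 30, 43 and 36 in V2_LF (log2 fold change -1.75, edgeR adjusted p = 0.0473, and 0.0583 to 0.165 when any 1 library was left out). For ndhA, a subunit of the NADH dehydrogenase-like complex, they were 5, 4 and 17 in PS_LF and 11, 13 and 17 in V2_LF. This made a log2 fold change of -1.71 (edgeR adjusted p = 0.0443), with PS_LF replicate 3 deciding the size: without it the value was -2.91. The test was not passed by 4 genes: petD, a subunit of the cytochrome b6f complex (-1.66, edgeR adjusted p = 0.0957), rps16, a ribosomal protein (-1.62, adjusted p = 0.220), ycf3, an assembly factor of photosystem I (-0.38, adjusted p = 0.581) and ndhD of the NADH dehydrogenase-like complex (-0.26, adjusted p = 0.834). The reads of ycf3 were 78, 225 and 165 in PS_LF and 87, 115 and 92 in V2_LF, a spread of 2.61 to 10.5 CPM within PS_LF that covered the V2_LF values. With PS_LF replicate 1 left out, 3 plastid genes were called lower.

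Of 235 noncoding RNA genes tested, 40 (17.0%) were higher and 19 (8.09%) lower in PS_LF, against 23.4 and 23.0% of all genes tested. Their summed level was 206, 367 and 315 CPM in PS_LF and 249, 300 and 236 CPM in V2_LF, and the groups overlapped. These counts moved with the setting, from 11 to 78 higher and from 4 to 25 lower.

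The genes that the study's text names by ID are given as a group, of which 5 were tested, with 2 called higher and 1 called lower in the adult blade. The gene brick3 (Zm00001d023262) belongs to the BRICK genes, which maize needs for the lobed shape of leaf epidermal cells. It stood at 73.6, 80.8 and 81.5 CPM in PS_LF and at 47.0, 46.4 and 38.7 CPM in V2_LF. All adult libraries were above all seedling libraries, with a log2 fold change of 0.84 ± 0.12 (SE; edgeR adjusted p = 2.81e-06), and the call held under the 15 alternatives. It was not a gene of the blade above all, since the ear (213 CPM) and the immature seedling leaf (195.5 CPM) had higher means. Zm00001d015293, a gene tied to leaf development in rice, measured 22.8, 16.2 and 16.4 CPM in PS_LF and 13.9, 9.97 and 11.7 CPM in V2_LF. The groups did not overlap, and the log2 fold change was 0.64 ± 0.15 (SE; edgeR adjusted p = 0.00104). All libraries of the other 9 tissues were above the V2_LF libraries for this gene, at 20.7 CPM or more, and the tassel was highest with a mean of 237.6 CPM.

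A phosphotransmitter gene was high in both green blades and near 0 elsewhere. Zm00001d043505 encodes a protein that relays phosphate in the response to cytokinin. It measured 89.8, 95.6 and 102.6 CPM in PS_LF and 77.7, 113.8 and 67.3 CPM in V2_LF, whereas no library of the other 9 tissues exceeded 3.69 CPM. The immature leaf of the same seedling stage had a mean of 0.155 CPM. Between the 2 blades the ranges overlapped, and the log2 fold change was 0.15 ± 0.44 (SE; edgeR adjusted p = 0.839), which leaves room for a change in either direction.

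The cyclophilin gene Zm00001d008209, of a family of enzymes that help proteins to fold, depended on single seedlings. Its level was 3.11, 8.90 and 8.03 CPM in PS_LF and 70.8, 93.3 and 3.45 CPM in V2_LF, so 2 seedling blades were above all adult blades and replicate 3 was within their range. The log2 fold change was -3.08 ± 0.81 (SE; edgeR adjusted p = 0.00280), from -2.46 without V2_LF replicate 2 to -3.61 without V2_LF replicate 3. With the replicate number as a block the adjusted p was 0.169. The immature leaf had a mean of 96.0 CPM.

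The TBL genes, whose relatives in Arabidopsis acetylate wall polysaccharides, were nearly silent in both blades. Zm00001d045720 had 0 reads in all 6 libraries, Zm00001d045722 had 1 read, in PS_LF replicate 2, and Zm00001d045721 had 3 reads in PS_LF and 1 in V2_LF. A count of 0 in the shallowest library allows up to 0.313 CPM. Only Zm00001d045721 had enough reads in the series to be tested, and no difference was detectable at this depth (edgeR adjusted p = 0.948), while it reached 52.1 CPM in an ear library.

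The genes that differed most were high in one blade and at or near 0 reads in the other. They bear no name in the annotation at hand and are given by ID. Zm00001d043461 stood at 71.0, 167.5 and 153.0 CPM in PS_LF and had no read in any V2_LF library. Against the limit of 3 reads over the 3 V2_LF libraries it was at least 1323-fold higher in PS_LF (edgeR adjusted p = 5.50e-05, whereas DESeq2 gave 0.118). Its highest value in any other tissue was 1.26 CPM, so nearly all its reads lay in the adult blade. Zm00001d050021 also had no read in V2_LF and measured 285.6, 27.2 and 51.7 CPM in PS_LF, at least 1232-fold higher (edgeR adjusted p = 1.62e-07). Here PS_LF replicate 1 held most of the signal, and without it the bound was 400.4-fold. This gene was also found in the later seed stage (DAP35_S), with a mean of 40.2 CPM.

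In the other direction, Zm00001d023516 stood at 6760, 5876 and 7545 CPM in V2_LF and at 0.301, 1.41 and 1.67 CPM in PS_LF. The log2 fold change was -12.61 ± 1.22 (SE; edgeR adjusted p = 5.09e-08), and no library of another tissue exceeded 5.62 CPM. Nearly all its reads thus lay in the seedling blade, and the immature leaf of the seedling had a mean of 2.55 CPM. Zm00001d026436 differed in this last respect. It measured 338.4, 443.8 and 298.2 CPM in V2_LF and had 4, 1 and 0 reads in PS_LF (log2 fold change -12.22 ± 0.71 (SE), edgeR adjusted p = 1.17e-12), but its mean in the immature leaf was higher still, at 1472 CPM.

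**Figure D3:**
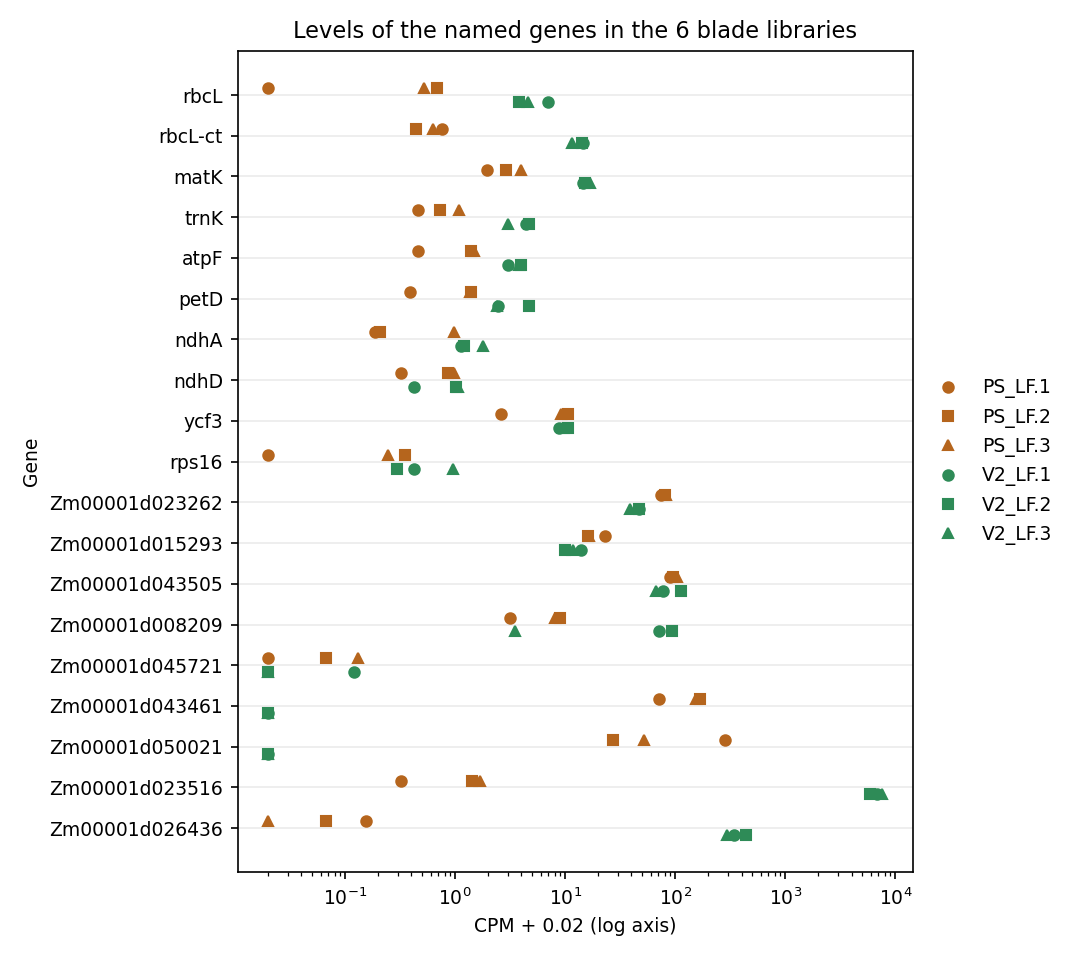
Level of each named gene (y axis) in the 6 blade libraries (x axis, CPM plus 0.02, log axis), with brown points for PS_LF, green points for V2_LF and the shape giving the replicate; there are no error bars, since each point is 1 library. Points at the left edge had 0 reads. The groups are apart for rbcL, rbcL-ct, matK, trnK, atpF, petD, ndhA, brick3 (Zm00001d023262) and Zm00001d015293. They overlap for ndhD, ycf3, rps16, Zm00001d043505, Zm00001d008209 and Zm00001d045721. The 4 genes at the bottom were chosen for having no overlap.

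Few genes were wholly confined to one of the blades. Only 18 genes had at least 1 CPM in every PS_LF library and no read in V2_LF, and 29 were in the opposite state. Of the 18 PS_LF genes, 14 reached 1 CPM in another tissue at pollen shed and 3 were under 1 CPM in all 9 other tissues. Of the 29 V2_LF genes, 24 reached 1 CPM in the immature leaf and none was under 1 CPM in all 9 other tissues.

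In the immature seedling leaf, genes lower in the adult blade by over 1 log2 had a median level above that of all genes. Genes higher in the adult blade by over 1 log2 had a median below it. Over the 4335 genes lower in PS_LF by over 1 log2, the median log2 CPM was 3.48 in V2_LF and 1.06 in PS_LF. Outside the blades it was 3.71 in the immature leaf, against 3.08 over all genes tested. It was 3.08 in the hypocotyl and 2.44 in the seedling roots, against 3.10 and 2.96 over all genes, 2.76 in the tassel, against 3.16, and 1.24 to 2.24 in the remaining 5 tissues. Over the 3699 genes higher by over 1 log2, the median was 2.85 in PS_LF and 0.95 in V2_LF. These genes were at 2.75 to 3.09 in 8 other tissues and at 2.24 in the immature leaf. All 6772 genes called higher, whatever the size of the change, had a median of 3.63 in the immature leaf, above the 3.08 of all genes tested. The levels in PS_LF and V2_LF chose these genes and are no finding.

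**Figure D4:**
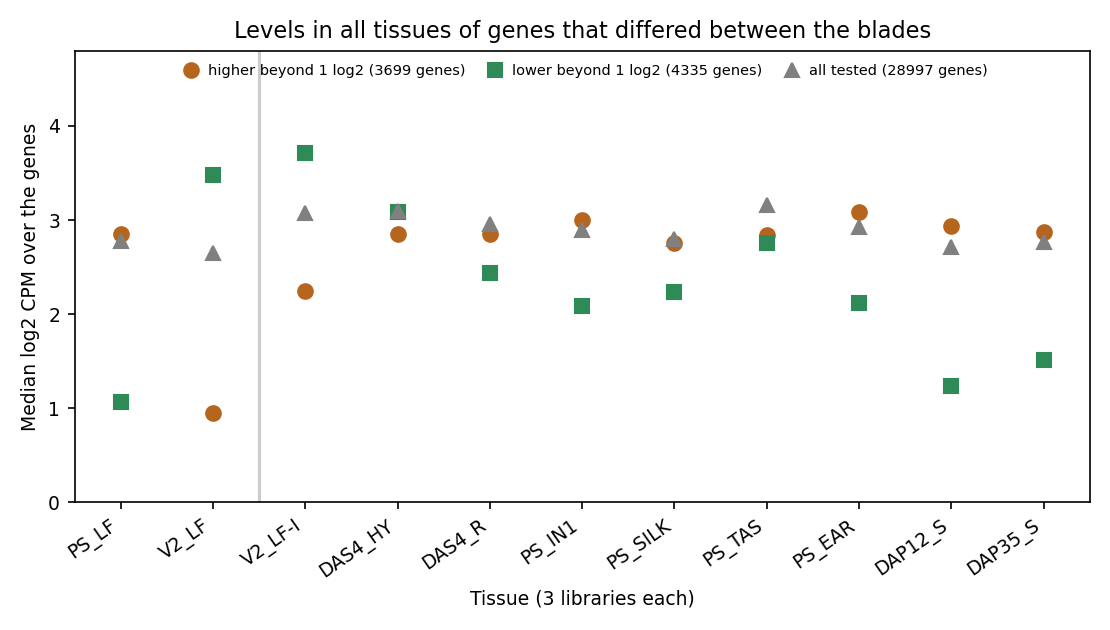
Median log2 CPM (y axis) in the 11 tissues (x axis) of genes higher (brown) or lower (green) in PS_LF by over 1 log2, beside all genes tested (grey). PS_LF and V2_LF, left of the line, chose the genes; among the other tissues the green points are highest in V2_LF-I (3.71) and the brown points lowest there (2.24).

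The same split was read in libraries that took no part in the blade comparison. The 4 other pollen-shed tissues (internode, silk, tassel and ear) were set against the immature seedling leaf in the same fit, where 28.5% of all genes were called higher and 33.6% lower at pollen shed. Of the 6772 genes higher in the adult blade, 2918 (43.1%) were also higher in this contrast and 1669 (24.6%) lower. Of the 6683 genes lower in the adult blade, 3860 (57.8%) were also lower and 1122 (16.8%) higher. Without PS_LF replicate 1 these shares were 43.4 and 24.5%, and 57.0 and 16.9%. Part of each set thus moved against the other tissues, and organ and stage differ together in this contrast.

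Genes chosen for a high level in one blade lean towards that blade as their leading tissue, so the next shares are a description beside those of all genes at that level. Of 135 genes higher in PS_LF by over 2 log2, at 50 CPM or more and without overlap between the blades, 82 (60.7%) had a higher mean in PS_LF than in each of the other 9 tissues, as did 44.9% of the 4534 genes at 50 CPM or more in PS_LF. Among the 9 tissues the highest was the internode for 47 genes and the tassel for 41, against 827 and 927 of those 4534 genes. Of 406 such genes lower in PS_LF, 302 (74.4%) were higher in V2_LF than in each of the 9 tissues, as were 56.5% of the 4893 genes at 50 CPM or more in V2_LF. For 202 of these 406 the highest of the 9 tissues was the immature leaf, as it was for 1375 of those 4893 genes.

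PS_LF replicate 1, taken 3 days before its partners, was apart from them. Against replicates 2 and 3 it had 1666 genes higher (5.75%) and 675 lower (2.33%) by edgeR at an adjusted p under 0.05, of which 1363 and 491 differed by over 1 log2. A single library has no spread of its own, so it was assumed to vary like the other groups of the fit. DESeq2 called 1918 higher and 1168 lower. The median SD of a gene's log2 CPM was 0.109 between replicates 2 and 3, and it was 0.244 and 0.248 between replicate 1 and each of them. The pairs of V2_LF lay between, at 0.141 to 0.195. Replicate 1 is 1 plant on 1 date, so the effect of the date and the effect of plant or library cannot be told apart.

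The same contrast called fewer genes in other tissues. In the tassel, internode and ear, replicate 1 set against its partners gave 36, 136 and 0 genes (the ear had 1597 genes at an unadjusted p under 0.05). Each V2_LF library against its partners gave 0, 2 and 31 genes, replicate 1 having 1171 at an unadjusted p under 0.05. Of the 23 genes higher in the first tassel library, 3 were among the 1666 higher in PS_LF replicate 1, and of the 13 lower ones 1 was among the 675, counts too small to compare with the 5.75 and 2.33% of all genes. Of the 32 higher and 104 lower genes of the first internode library, 0 went the same way in PS_LF replicate 1 and 1 lower gene went the opposite way.

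**Figure D5:**
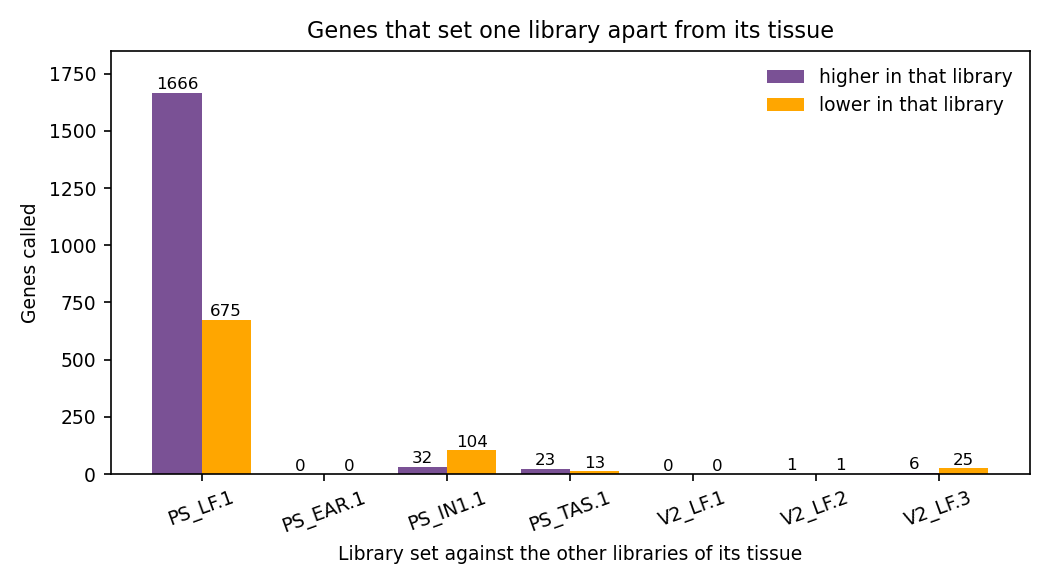
Number of genes called by edgeR at an adjusted p under 0.05 (y axis) when 1 library is set against the other libraries of its tissue (x axis), split into genes higher (purple) and lower (orange) in that library. PS_LF.1 stands apart with 1666 and 675 genes, while no other contrast exceeds 136 in all.

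Genes higher in PS_LF replicate 1 had a median level of 13.3 CPM in this library, 3.94 and 3.73 CPM in replicates 2 and 3 and 7.61 CPM in V2_LF, and 938 of the 1666 had a mean under 10 CPM, as did 15934 of the 28997 genes tested. Leaving PS_LF aside, V2_LF was the highest of the other 10 tissues for 185 of these genes (11.1%), against 17.9% of all genes tested. Silk was the highest for 17.0%, internode for 15.8% and tassel for 13.3%, against 8.72, 9.89 and 16.3% of all genes. For the genes lower in replicate 1, V2_LF was the highest of the other tissues in 303 of 675 cases (44.9%), against the same 17.9%. Their median was 11.9 CPM in replicate 1, 34.0 and 34.4 CPM in its partners and 31.8 CPM in V2_LF. All genes tested had a median of 6.31 CPM in V2_LF. The 17.9% is thus not matched for level, and its distance from 44.9% is a description only. The distance from replicates 2 and 3 chose both sets, so the PS_LF medians follow from that choice. The V2_LF medians and the shares by leading tissue were read in other libraries. For the lower genes V2_LF was near the partners, and for the higher genes it lay between replicate 1 and the partners. Plastid features were lower in replicate 1, with a sum of 6.76 CPM against 20.0 and 21.6 CPM in replicates 2 and 3.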

How the data were processed

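RNA-seq counts of the 3 PS_LF and 3 V2_LF libraries were compared within the 33 libraries of the series. The authors trimmed reads with Trimmomatic, removed ribosomal reads with sortMeRNA and aligned the rest to AGPv4 with STAR, and the submitters' notes name B73 RefGen_v4. For the version of STAR and the annotation release: not given in the sources used here. Raw counts per gene, not normalized, were deposited by the authors. The column for the reverse strand was used, as for a TruSeq stranded kit. Lines that name no gene (10.4 to 13.9% of the reads of a blade library) did not enter library sizes or tests.

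Genes were tested with edgeR 4.0.16 in R 4.3.3 by the quasi-likelihood test with TMM factors, in 1 fit with a group per tissue (22 residual degrees of freedom), after filterByExpr (minimum count 10, minimum total 15), with Benjamini-Hochberg adjustment over all 28997 genes left of 46430 features. Single libraries were set against their partners in fits of the same kind with that library as a group of its own (21 residual degrees of freedom), where its spread is assumed to be that of the other groups. Log2 CPM used a prior count of 2. A limit for a count of 0 was 3 reads and covers counting error only. The SDs are over the 3 plants of a blade and the SEs come from the quasi-likelihood fit, so both also hold differences between plants. The scripts were tested on simulated data. The alternatives were DESeq2 1.42.0, RLE and upper-quartile factors, other filters, the 6 libraries alone, the unstranded column, each library left out, a replicate block and, chosen after seeing the data, library size alone.

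Replicates are single plants. They differed by more than sampling noise (11.1 to 121.9 in chi-square over its degrees of freedom), and none was counted as a copy. The members and gene lists were chosen with earlier results of these data known. The gene names at hand (a RefSeq table of the assembly NAM-5.0) matched 365 features, 157 plastid and 208 mitochondrial, so the planned lists of nuclear genes could not be counted. Named are the tested plastid genes, the called mitochondrial gene, the genes the study's text gives by ID, and the 2 IDs that rose and the 2 that fell most among called genes of at least 50 CPM without overlap between the blades. The functional terms in a supplement were not used, since its 2 sheets had no term in common for 1403 of the 1758 genes in both.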

Additional observations from a re-analysis of the deposited data

How the results depend on the processing

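The counts of genes higher and lower kept within 1.5 times of the reported ones under the alternatives run, except as follows. With library size alone, 14169 genes were higher and 2973 lower, and by over 1 log2 9579 and 2294. With the replicate block in a fit of the 6 libraries, 4039 were higher and 4412 lower. That fit had fewer samples and tested 21215 genes. Same-numbered libraries did not deviate together (correlations of -0.0982, -0.0413 and -0.0391). Deviations within a blade depend on one another, so these values cannot show whether same-numbered samples share more than a number. With 1 library left out, 5943 to 6380 genes were higher and 5861 to 6750 lower. For the named genes, 247 of 278 alternative values kept their direction and their side of the threshold, 22 lost the call and 2 gained it. The sign changed in 7 values of genes that were called in neither setting: with 1 library left out, Zm00001d045721 ranged from -0.64 to 3.52 log2, ycf3 from -0.72 to 0.036 and ndhD from -0.57 to 0.13, and with library size alone ycf3 was at 0.37 and ndhD at 0.48. The plastid genes rest on 202 to 520 reads per library.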
